A study of Mus musculus with 3 samples.

Results

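The proteasome genes were taken as all mouse genes whose annotated symbol is Psma, Psmb, Psmc, Psmd, Psme, Psmf or Psmg followed by a number. On the array 49 such genes had a probe set with 1 symbol, among 18194 genes in all, and they were covered by 103 probe sets. Of these genes 45 passed the filter on signal (a mean signal over the arrays of at least 200), among 9723 passing genes. The 4 that did not pass were Psma8, Psmb8, Psmb9 and Psmb11. Psme2, an activator subunit, is covered by 1 probe set that carries a second symbol and was not used. Psmc3ip, a meiotic recombination cofactor, and Psme3ip1, a protein that binds the activator Psme3, match the pattern without being proteasome subunits and are given apart.

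The study followed B16 cells, a mouse melanoma line, for 0, 2 and 4 h after doxorubicin at 1 µg/ml, an anthracycline drug that damages DNA by trapping topoisomerase II on it. The cells were grown in medium with 10% serum, and RNA of each time was hybridised to 1 Affymetrix Mouse430_2 array. All 3 arrays come from this 1 line, and no untreated culture of 2 or 4 h is among them, so drug and time in culture cannot be told apart. With 1 array at each time there is no standard error and no test, the small number of arrays limits the precision, and genes were counted where they differed by 2-fold or more. The description label names "BMDM" instead of B16, and the labels of the later times an "ET" treatment; neither is spelled out there. Where 3 signals follow each other, they stand for 0, 2 and 4 h in that order. Of 10 pigment cell markers, 10, 9 and 9 reached a signal of 200. Tyrp1, a melanosomal enzyme, had the signals 42568, 44083 and 47128, and the melanosome protein Pmel 35665, 46371 and 45805. Not all pigment markers held their signal: 3 of the 9 that passed the filter were lower by 2-fold or more at 4 h, and they are named for that. The transcription factor Sox10 had 11709.7, 2640.0 and 892, the transcription factor Mitf 6576, 2031 and 739, and the receptor Mc1r 3976, 2200.5 and 1196. Of 10 macrophage markers 5, 4 and 4 reached 200, with summed signals of 3623, 4719 and 5126 against 174532, 179691 and 185232 for the pigment markers. The brightest 2 macrophage markers were Cd68 (1884, 3044 and 3699) and Csf1r (522, 424 and 376), while the leukocyte antigen Ptprc was under the signal floor of 100 on each array. Fibroblast markers reached 200 in 4 of 8 genes on each array, lymphocyte markers in 2, 2 and 1 of 6, and endothelial markers in 1 of 6.

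The proteasome degrades proteins tagged with ubiquitin. Its barrel-shaped core stacks rings of alpha subunits, which gate the entry, and rings of beta subunits, of which Psmb5, Psmb6 and Psmb7 carry the active sites in most tissues. In cells of the immune system, or after interferon, Psmb8, Psmb9 and Psmb10 take their places. A regulatory particle caps the core: its base holds a ring of ATPases (Psmc genes) that unfold and thread the substrate, and its lid (most Psmd genes) holds Psmd14, which removes the ubiquitin chain. Other caps, the Psme activators, open the core without ATP, and dedicated chaperones (Psmg genes, Psmd5, Psmd9 and Psmd10) assist assembly without being part of the finished particle. When proteasomes are short, the transcription factor Nrf1, encoded by Nfe2l1, is known to raise proteasome genes together through antioxidant response elements in their promoters.

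Because the subunit genes are known to be raised together through such elements, the promoters of 4 of the 6 members with a match to their core letters are shown. Each is given as the 60 bases of promoter that hold the match, read 5′ to 3′ along the gene from RefSeq on GRCm38.p6. Capitals mark the letters TGACNNNGC, or their reverse complement, searched on both strands. Psmb5 is shown at chr14:54618009-54618068 (minus strand), Psmb6 at chr11:70525297-70525356 (plus), Psmc6 at chr14:45329574-45329633 (plus) and Psmd9 at chr5:123228130-123228189 (plus).
Psmb5: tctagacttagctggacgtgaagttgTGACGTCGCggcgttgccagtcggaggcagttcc
Psmb6: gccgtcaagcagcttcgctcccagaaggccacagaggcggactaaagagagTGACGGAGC
Psmc6: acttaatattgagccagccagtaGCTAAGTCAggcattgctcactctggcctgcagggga
Psmd9: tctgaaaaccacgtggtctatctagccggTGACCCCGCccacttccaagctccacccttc
The match begins 47 bases before the start that the promoter table uses in Psmb5, 9 in Psmb6, 227 in Psmc6 and 31 in Psmd9. For Psmb6 that start lies 33 bases inside the annotated gene span, so its match lies within the span, and for Psmc6 it lies 1 base inside. Of the 41 members with a window in the table, 6 held these letters within 250 bases before and 50 after a start (14.6%), against 14.0% of 27025 genes with a window. The other members with a match were Psmd12 and Psme4. The 4 members shown differed in direction at 4 h: Psmb5, Psmb6 and Psmc6 had log2 ratios of 0.46, 0.69 and 0.51 to 0 h, and Psmd9, an assembly chaperone, of -0.47. Among the members that passed, the median log2 ratio at 4 h was 0.49 for the 6 with a match and 0.35 for the 32 with a window and none. At 2 h the order was the other way, 0.22 with a match and 0.29 without.

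No proteasome gene that passed the filter differed by 2-fold between any of the arrays as scaled here. With equal array medians Psmc1 and Psmb10 were past 2-fold higher at 4 h, and with spike-in scaling Psmd5 was past 2-fold lower. Among all 9723 genes 5.69% had a 2 h signal lower than that of 0 h by 2-fold or more, and 1.41% a higher one by as much. At 4 h these shares were 14.4% and 2.32%, and for 4 h against 2 h they were 5.41% and 0.843%. Of all genes past 2-fold at 4 h 86.1% were lower, a share that was 54.6% with equal medians, 69.7% with quantile normalization and 97.1% with spike-in scaling. Most members are bright, however, and bright genes seldom passed 2-fold: of the 2157 genes with a mean signal of 2000 or more, to which 34 of the 45 members belong, 2.92% were 2-fold lower and 1.44% 2-fold higher at 4 h. These shares were 0.649% and 0.139% at 2 h, and 1.44% and 0.0927% for 4 h against 2 h. The differences of the members were small and mostly upward. At 2 h 39 of 45 stood above their 0 h signal, against 49% of all genes and 76.6% of the bright ones, with a median log2 ratio of 0.28. At 4 h 38 of 45 did, against 46.1% and 74.8%, with a median of 0.35. These counts rested on the scaling: at 4 h 25 of 45 were above 0 h with quantile normalization (median 0.02) and 26 of 45 with spike-in scaling (median 0.03). A log2 ratio of 0.5 or more was reached by 7 members at 2 h, against 9.6% of all genes and 10.3% of the bright ones, and by 11 at 4 h, against 15.5% and 27.1%. One of -0.5 or less was reached by 0 members at 2 h, against 18.3% and 2.36%, and by 2 at 4 h, Psmd5 and Psme3ip1, against 28.8% and 7.65%. At 4 h the members' share at 0.5 or more was thus not above that of the bright genes. In a bulk array fewer cells of a type and less RNA per cell cannot be told apart.

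By their medians the core and the regulatory particle lay above 0 h and the assembly chaperones below it at 4 h. The 15 core subunits that passed had a median log2 ratio of 0.34 at 2 h and 0.46 at 4 h, and the 17 subunits of the regulatory particle 0.28 and 0.35. All 32 had a signal above that of 0 h at 4 h, and 31 at 2 h, the exception being Psmd14. The 7 assembly chaperones had a median of 0.00 at 2 h and -0.32 at 4 h, with 5 of 7 below 0 h at the later time. Of all 9723 genes 5240 were below at 4 h, and 4697 of the 7566 with a mean signal under 2000. The direction of the subunits against 0 h rested on how the arrays were scaled. With quantile normalization their median was 0.12 at 2 h and 0.03 at 4 h, with scaling to the hybridization spike-ins 0.10 and 0.06, and with equal medians 0.47 and 0.68. In these settings 19, 21 and 32 of the 32 were above 0 h at 4 h. The chaperone median at 4 h was -0.27, -0.64 and -0.02 in them, with 5, 5 and 4 of 7 below 0 h. The gap between the subunits and the chaperones at 4 h was 0.70 in the reported scaling and 0.29 with quantile normalization. Equal medians and spike-in scaling shift every gene of an array alike, so the 0.70 they give could not have differed.

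**Figure D1:**
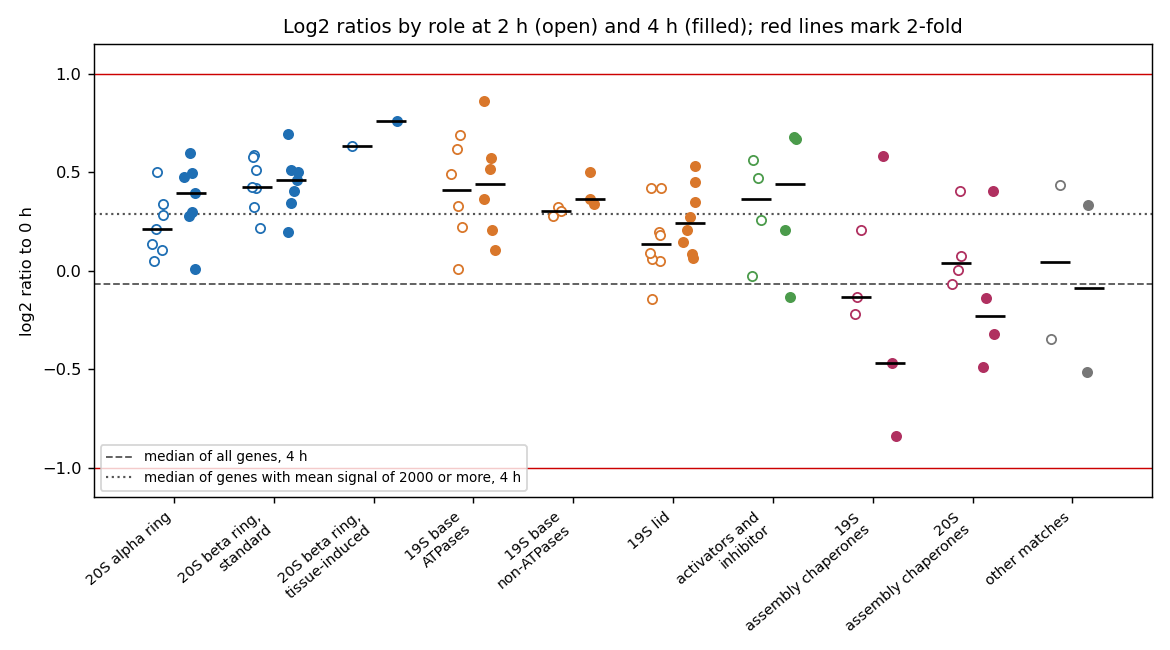
Log2 ratio to 0 h (y axis) of each passing proteasome gene at 2 h (open circles) and 4 h (filled circles) by role (x axis); black bars are medians and red lines mark 2-fold. No point reaches 2-fold, the ring and lid groups lie above 0 at 4 h, and the medians of both chaperone groups lie below it, at -0.47 and -0.23.

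Signal strength moved with this pattern. The median log2 ratio of all genes at 4 h was -0.24 for mean signals from 512 to 1024, 0.02 from 1024 to 2048, 0.19 from 2048 to 4096, 0.36 from 4096 to 8192 and 0.43 from 8192 to 16384. Of the 32 subunits 1 had a mean signal under 2000, Psmb10, while 5 of 7 chaperones did. When each gene was set against the median of all genes in its own log2 unit of signal, a comparison added after the values were seen, the subunits had a median of 0.08 at 2 h and -0.01 at 4 h, with 15 of 32 above the genes of like signal. On that measure the chaperones stood at 0.04 and -0.23, with 5 of 7 below. At 4 h the subunits thus lay where other genes of their brightness lay. At 2 h 19 of the 32 subunits were above the genes of like signal, with 6 of 7 in the standard beta ring, 4 of 6 ATPases and 3 of 8 in the lid.

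**Figure D2:**
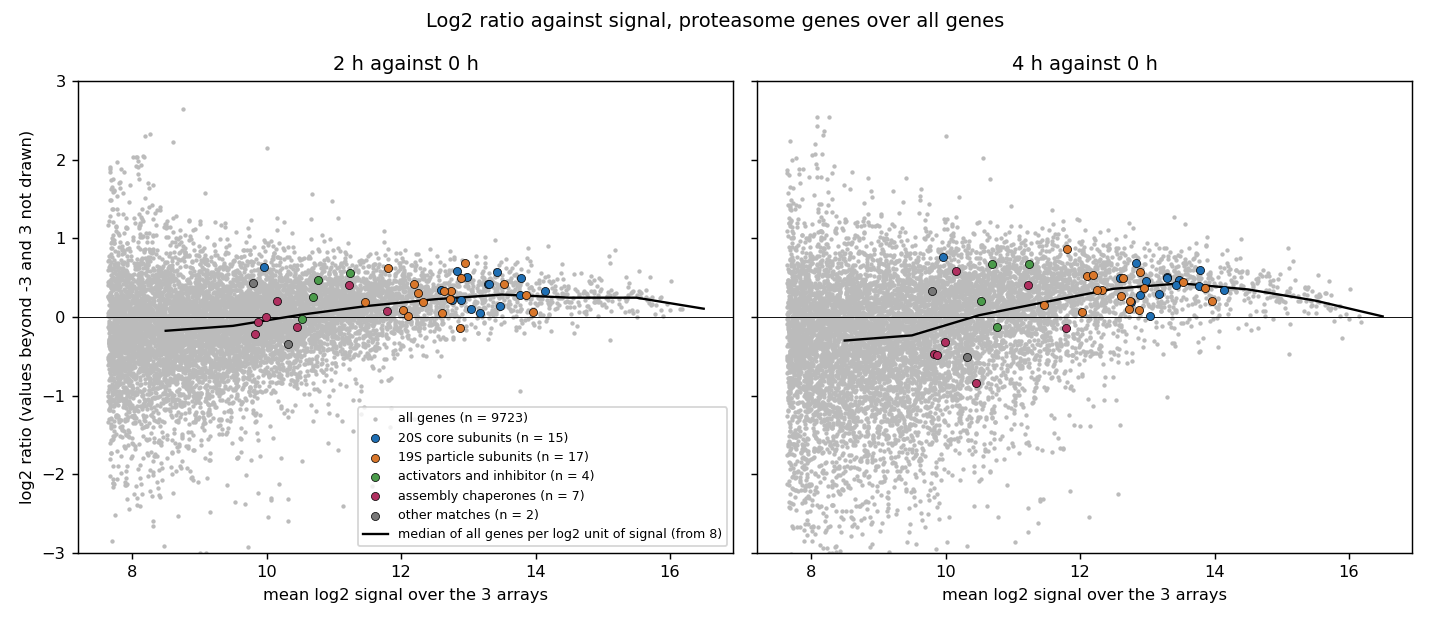
Log2 ratio at 2 h and 4 h against 0 h (y axes) by mean log2 signal over the 3 arrays (x axes), with all 9723 genes in grey, proteasome genes in colour by role and the median of all genes per log2 unit of signal as a line. The line climbs from -0.24 to 0.43 at 4 h between signals of 512 and 16384, and the core and regulatory particle subunits scatter around it.

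Members were set against the spread between different probe sets of 1 gene, the only error at hand, which leaves out variation between cultures and arrays. For the brightest of 4 bins of probe sets its SD was 0.27 at 2 h and 0.32 at 4 h (log2 ratios to 0 h). At 2 h 5 members (Psmb1, Psmb6, Psmc1, Psmc2 and Psme1) were higher than 0 h by 2 such SDs or more for their signal, 5 of 45 against 4.22% of all genes. At 4 h 4 were (Psmb6, Psmc1, Psme1 and Psme4), against 5.5%. None was lower by that much at either time, against 7.71% and 14.3% of all genes. From 2 h to 4 h Psmc6 was higher by that measure, 1 of 45 against 3.37%, and Psmd5 and Psme3 were lower, 2 of 45 against 10.1%. These shares are over genes of any signal, while 34 of the 45 members had a mean signal of 2000 or more. All genes that bright had median log2 ratios to 0 h of 0.20 at 2 h and 0.29 at 4 h.

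Among the alpha ring genes, Psma6 stood highest and Psma7 lowest at 4 h. Psma6 had signals of 10957, 15473 and 16551, a log2 ratio at 4 h of 0.60 ± 0.21 (SD over 3 probe sets). Psma1 had signals of 5076, 6420.2 and 7144, a ratio of 0.49. On these probe sets both were lowest at 0 h and highest at 4 h. Another probe set of Psma6 was highest at 2 h (8879, 12049 and 11622), and its dimmest passing one was lowest at 2 h (509, 428 and 577). Psma5 had signals of 6771, 7849 and 8216, with a ratio at 4 h of 0.28 ± 0.07 (SD over 2 probe sets). Psma7 had 8177, 8804 and 8238, close to its 0 h signal at 4 h (0.01 ± 0.42, SD over 2 probe sets). Its probe sets parted: the one not standing for the gene had 6528, 8848 and 9931 and a ratio of 0.61. The remaining members Psma2, Psma3 and Psma4 had ratios from 0.30 to 0.47 at 4 h. Psma8, the alpha subunit of the testis, had signals of 15.3, 20.6 and 22.0, under the signal floor of 100 on every array.

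The standard beta ring genes had the highest median of the groups at 2 h with more than 1 gene, 0.42, and 0.46 at 4 h. Psmb6, the caspase-like active site, was the highest of them, with signals of 5456, 8184 and 8811, ratios of 0.58 and 0.69. Psmb5, the chymotrypsin-like site and the main target of bortezomib, had 6445, 9179.8 and 8862, ratios of 0.51 and 0.46. Psmb7, the trypsin-like site, had 15458, 19364 and 19622, ratios of 0.33 and 0.34. All 3 active-site genes thus had their lowest signal at 0 h and differed little between 2 h and 4 h. Of the subunits without an active site, Psmb3 had 8062, 10774 and 11476, a ratio at 4 h of 0.51 ± 0.16 (SD over 2 probe sets). Psmb2 was the lowest of the ring at 4 h, with 6285, 7303 and 7199 and a ratio of 0.20. Psmb4 stood at 0.50 ± 0.30 at 4 h (SD over 2 probe sets). For Psmb1 the ratios were 0.57 ± 1.02 at 2 h and 0.40 ± 0.88 at 4 h (3 probe sets, SD), and its value depends on the probe set, as described below.

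Of the beta subunits that replace the standard active sites in immune cells, Psmb10 was the only one that passed the filter. It had signals of 722, 1119 and 1221, ratios of 0.63 and 0.76, the highest of the core at 4 h. It rests on 1 probe set, in a range of signal in which the SD between probe sets was 0.43 at 4 h. Psmb8 was under 100 on every array, with 58.7, 19.5 and 9.41 for its brighter probe set, as was Psmb9 with 51.0, 34.8 and 70.1. Psmb11, the subunit of the thymus cortex, had 78.1, 31.6 and 204, above the floor at 4 h only. Genes of antigen processing, which act on the peptides these subunits make, went both ways at 4 h. Of the 6 that passed 4 were above 0 h, against 46.1% of all genes. H2-K1 was 2.19-fold higher (512, 992 and 1124, ratio 1.13 ± 1.77, SD over 2 probe sets that differed in sign) and B2m 1.66-fold higher (10477, 12435 and 17398). H2-D1 had 308, 153 and 304. Irf1, a transcription factor that drives Psmb8 and Psmb9 after interferon, was 2.68-fold lower (1721, 679.9 and 642). Of the 41 members with a promoter window 5 held the core of the interferon-stimulated response element, searched on both strands (12.2%, against 3.99% of all genes with a window), namely Psmb3, Psmd4, Psmd9, Psme1 and Psmg4. TTCNNNGAA, the gamma-interferon activated site, was in 3 of 41 (7.32% against 9.55%). The CCAAT box was in 39.0% of members and 41.1% of all genes.

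**Figure D3:**
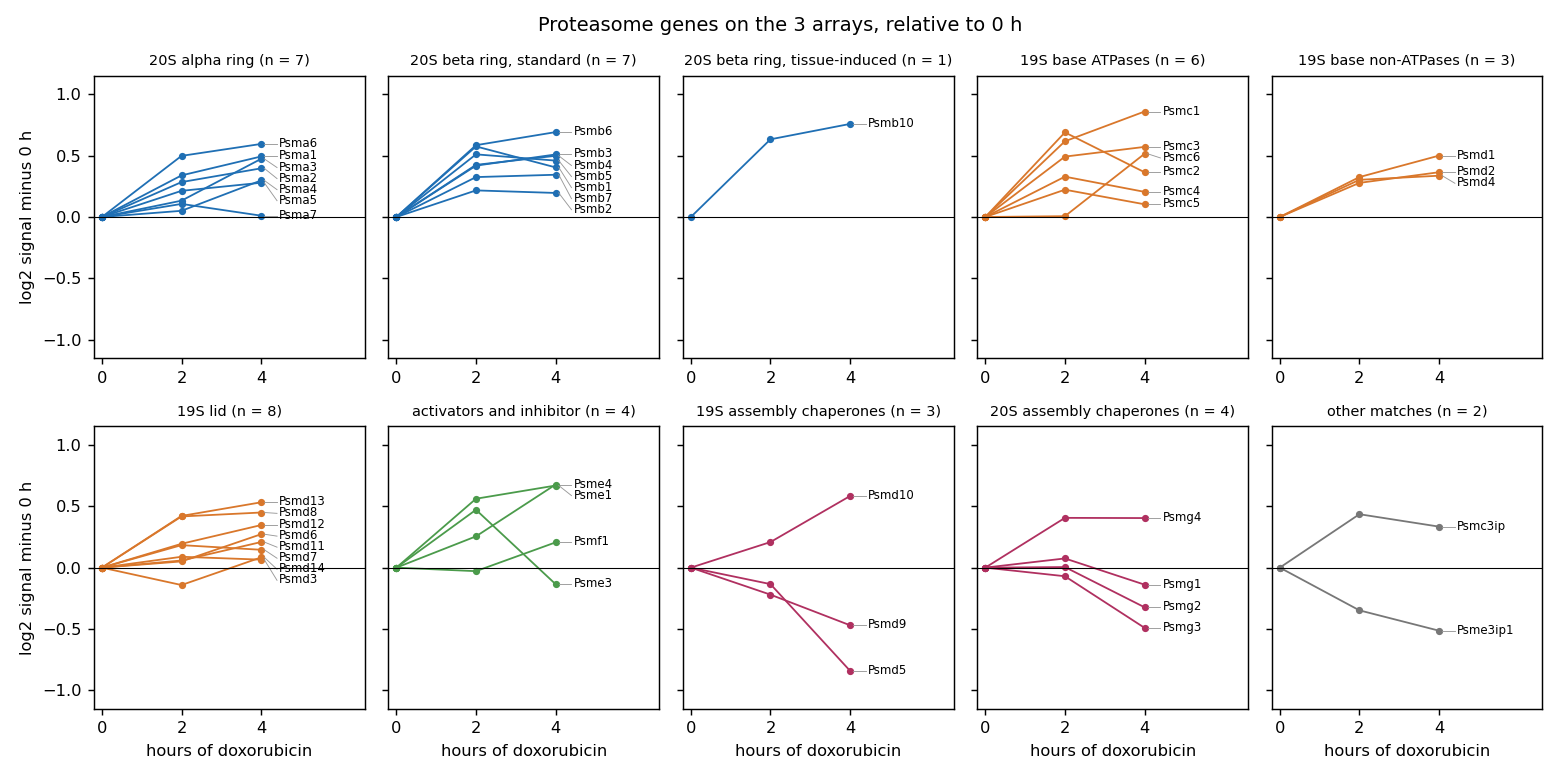
Log2 signal minus that at 0 h (y axis) against hours of doxorubicin (x axis) for each passing gene, 1 panel per role, with the number of genes in each title and gene names beside the 4 h points. Within the standard beta ring all 7 lines lie above 0 at both times, whereas Psmd5, Psmd9 and Psmg3 lie below 0 at both.

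In the base of the regulatory particle, Psmc1 had the highest ratio of all members. Its signals were 2537, 3891 and 4602, 1.81-fold higher at 4 h (log2 ratio 0.86). Psmc3 had 5965, 8389 and 8862, a ratio of 0.57. Psmc4 and Psmc5, the lowest of the ATPases at 4 h, had 6055, 7604 and 6979 (0.20 ± 0.28, SD over 2 probe sets) and 6275, 7321 and 6742 (0.10). The rank of Psmc4 depends on the probe set: its other one had 5098, 5519 and 7735, a ratio of 0.60. The ATPases did not share 1 course: Psmc6 was at 0.01 at 2 h and 0.51 ± 0.21 at 4 h, while Psmc2 was highest at 2 h with 0.69 ± 0.17 and at 0.36 ± 0.003 at 4 h (SD over 2 probe sets each). The non-ATPase scaffolds lay close together. Psmd1 had 5276, 6609 and 7460.3 (0.50) and Psmd2 12778, 15494 and 16453 (0.36). The ubiquitin receptor Psmd4 had 4215, 5200.1 and 5322 (0.34 ± 0.89, SD over 3 probe sets).

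The lid had the lowest median among the rings and particles, 0.14 at 2 h and 0.24 at 4 h. Psmd13 was highest at 4 h, with signals of 3772, 5051 and 5455, a ratio of 0.53 ± 0.26 (SD over 3 probe sets). Psmd8 followed with 9651, 12885 and 13175, a ratio of 0.45. Psmd14, the deubiquitinase of the lid, had 7655, 6938 and 8110.4, the one subunit below 0 h at 2 h (-0.14), and stood at 0.08 at 4 h. Psmd3 was lowest at 4 h, with 4034, 4289 and 4220.1 and a ratio of 0.07. These signals differ from 0 h by less than the spread between probe sets of like signal. The other lid genes Psmd6, Psmd7, Psmd11 and Psmd12 had ratios from 0.15 to 0.35 at 4 h.

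The activators differed among themselves. Psme1, part of the interferon-inducible cap, had signals of 1825, 2693 and 2902, 1.59-fold higher at 4 h. Psme4, a large single-chain cap linked to DNA repair and histone degradation, had 1330.1, 1587 and 2126, a log2 ratio of 0.25 ± 0.16 at 2 h and 0.68 ± 0.19 at 4 h (SD over 3 probe sets). All of its passing probe sets were above 0 h at 4 h. Psme3, the nuclear cap, was highest at 2 h: its signals were 1603, 2223 and 1460.3, which is 0.47 ± 0.20 at 2 h but -0.13 ± 0.01 at 4 h on the log2 scale (2 probe sets, SD). From 2 h to 4 h its log2 ratio was -0.61, beyond 2 SDs between probe sets of like signal. Psmf1, an inhibitor of the core, had 1419, 1391 and 1637 and a ratio at 4 h of 0.21 ± 1.00 (SD over 3 probe sets).

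Both groups of chaperones had lower medians at 4 h than the other roles, though not every chaperone was low. Psmd5, which holds a module of the base before it joins, had signals of 1756, 1600.1 and 981, 1.79-fold lower at 4 h (log2 ratio -0.84). Between 2 h and 4 h its ratio was -0.71. Psmd9, a chaperone of another base module, had 1067, 916 and 770.5 (-0.47). Psmd10, the oncoprotein gankyrin, went the other way, with 950.4, 1098 and 1424 and a ratio of 0.58. Of the chaperones of the core, Psmg3 had 1071, 1020.1 and 762 (-0.49), and Psmg2 1101, 1104 and 880.2 (-0.32 ± 0.33, SD over 3 probe sets). Psmg1, the partner of Psmg2, had 3609, 3801 and 3279 (-0.14), and Psmg4, the partner of Psmg3, 1983, 2626 and 2623 (0.40). As scaled here, the partners of each pair therefore lay on the same side of 0 h at 4 h for Psmg1 and Psmg2 but not for Psmg3 and Psmg4. The side of Psmg1 is not firm. Its ratio is smaller than the SD of 0.32 between probe sets of like signal, and it reached 0.17 under another setting of the processing. Of the genes that only share the name, Psmc3ip was at 0.33 ± 0.16 at 4 h (SD over 2 probe sets) and Psme3ip1 at -0.51.

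Probe sets of 1 gene did not always go the same way. Of 18 members with at least 2 passing probe sets, all probe sets lay on 1 side of 0 h for 14 at 4 h and for 11 at 2 h. Among the 73 passing probe sets, 4 differed downward by 2-fold or more at 4 h, and none of them stood for its gene. Both dimmer probe sets of Psmf1 were among them, with signals of 462, 374 and 230.2 (2.01-fold lower) and of 344, 272 and 94.3 (at least 3.44-fold lower, since the last is under the floor). For Psmd4 the dimmest probe set had 436, 419.6 and 199 (2.19-fold lower), and for Psmb1 a dim one had 558, 371 and 276 (2.02-fold lower) beside 8742, 13022 and 11568 for the brightest. The dimmest passing probe set of Psmb1 went the other way, with 129, 350.0 and 196, and was the 1 passing probe set at least 2-fold higher at 2 h (2.71-fold). All genes with a mean signal under 2000, the range of these dim probe sets, had a median log2 ratio of -0.20 at 4 h. Whether they read other transcripts of the gene was not tested.

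**Figure D4:**
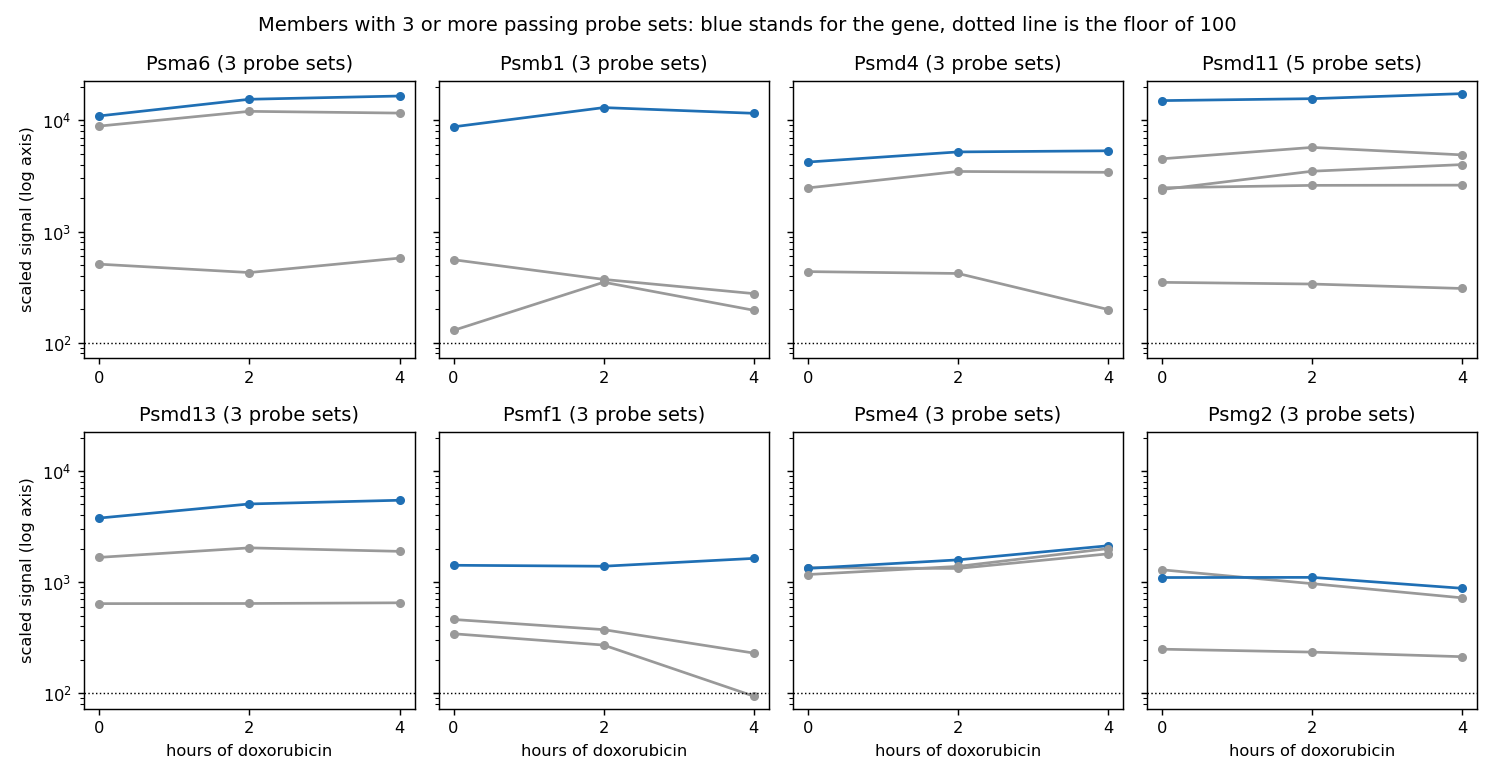
Scaled signal (y axis, log scale) against hours of doxorubicin (x axis) for every passing probe set of the 8 members with 3 or more, with the probe set that stands for the gene in blue, the others in grey and the floor of 100 dotted. The brightest probe sets of Psmb1, Psmd4 and Psmf1 lie at or above their 0 h signal at 4 h while a dimmer one of each lies below its 0 h signal, and the dimmest of Psmb1 lies above it.

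Some genes that work beside the proteasome differed by more than any subunit did. Of 10 passing partners from a list of 12, 2 lay below 0 h by 2-fold or more at 4 h and 0 above it by as much. Among all genes these shares were 14.4% and 2.32%. Akirin2, which carries proteasomes into the nucleus, had signals of 2930, 1755 and 242, 12.1-fold lower. Zfand5, a protein that stimulates degradation by the proteasome, had 5448, 2288 and 749, 7.27-fold lower, with an SD of 1.09 over its 4 probe sets around a log2 ratio of -2.86. Pomp, the maturation factor of the core, had 5155, 6550.4 and 8045 (0.64), and Sem1, the smallest lid subunit, 15159, 20474 and 23073 (0.61 ± 0.25, SD over 2 probe sets). These last 2 lay on the side of the subunits. Of the Nrf1 pathway, 5 of 6 genes were below 0 h at 4 h, none by 2-fold, and of all 9723 genes 5240 were below. Nfe2l1 itself, chosen after its values were seen, had 2009.7, 1829 and 1566 (-0.36). The lowest of that list were Nfe2l2, the related oxidative stress factor, with 2911, 2129 and 1460.1 (1.99-fold lower), and Mafk with 939, 318 and 473 (-0.99). The highest were Maff with 918, 1357 and 1798 (0.97) and Ngly1, the enzyme that activates Nrf1, with 330.3, 267 and 271 (-0.28).

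Among 8 passing genes of ubiquitin shuttles and the Vcp segregase, none reached 2-fold at 4 h. Of them 5 were above 0 h, against 46.1% of all genes. Ufd1 was highest, with 1012, 1539 and 1791 (0.82 ± 0.45, SD over 2 probe sets), followed by Nsfl1c with 6815, 7463 and 9936 (0.54). Nploc4, the partner of Ufd1, was lowest with 4804, 3474 and 3254 (-0.56), and Ubqln4 had 1380.0, 1228 and 974 (-0.50 ± 0.16, SD over 2 probe sets). Of 6 genes for ubiquitin and its activation, only Uba6 had a probe set with 1 symbol. It had 527, 296 and 259, 2.03-fold lower at 4 h, where 14.4% of all genes were lower by 2-fold or more. Its log2 ratio was -1.02 ± 0.69 (SD over 2 probe sets), close to the 2-fold limit. Other multi-subunit complexes gave values near those of the proteasome. The median log2 ratio at 4 h was 0.23 over 8 subunits of the CCT chaperonin, from Cct8 (0.55) to Cct3 (0.11). It was 0.42 over 17 subunits of the COP9 signalosome and eIF3, relatives of the lid, from Cops6 (0.81) to Cops7b (-0.29), and 0.29 over 42 cytosolic ribosomal protein genes. None of these 67 genes reached 2-fold at 4 h. Among enzymes that attach or remove ubiquitin, 27 Ube2 conjugating enzyme genes had a median of -0.09, near the -0.07 of all genes, with 3 at least 2-fold lower. The 38 Usp protease genes had a median of -0.38 with 9 at least 2-fold lower, against 14.4% of all genes. No test of these differences between lists was possible with 1 array a time.

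The passing members are compact genes. Their median genomic span on GRCm38.p6 was 12432 bases against 23245.5 over all 9712 genes with a span, and 71.1% were under 20000 bases against 45.4%. Over the 45 members Spearman's rho between span and log2 ratio was -0.35 at 2 h and -0.12 at 4 h, and over all genes -0.15 and -0.09. These are descriptions over genes, which share the arrays and are not independent replicates. Psmd14, Psmd1 and Psme4, which span 88683, 74677 and 109376 bases, stood at 0.08, 0.50 and 0.68 at 4 h, so the 3 longest members had unlike ratios.

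Per the file headers, each array was washed on a fluidics module of its own and the 4 h array later than the others, so these and time cannot be told apart at 2 h or at 4 h. Between 2 h and 4 h the members' median log2 ratio was 0.07, with 27 of 45 above 0 against 43.8% of all genes and 59.8% of the bright ones. A ratio of 0.5 or more was reached by Psmc6 alone (7.56% of all genes, 4.73% of the bright ones) and one of -0.5 or less by Psmd5 and Psme3 (19.6% and 6.21%). The direction of the median turned with the processing: it was -0.06 with 17 of 45 above 0 under quantile normalization and -0.03 with 18 of 45 under spike-in scaling. With suffixed probe sets left out 18 of 37 were above 0. In all, 36 members were above 0 h at both times, 4 were below it at both, and 5 stood on different sides at the 2 times. These 5 were Psmd14, Psme3, Psmf1, Psmg1 and Psmg2. Psmg2 and Psmf1 lay close to 0 h at 2 h, at 0.005 and -0.03. The other passing probe sets of these last 2 genes were below 0 h at both times.

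**Figure D5:**
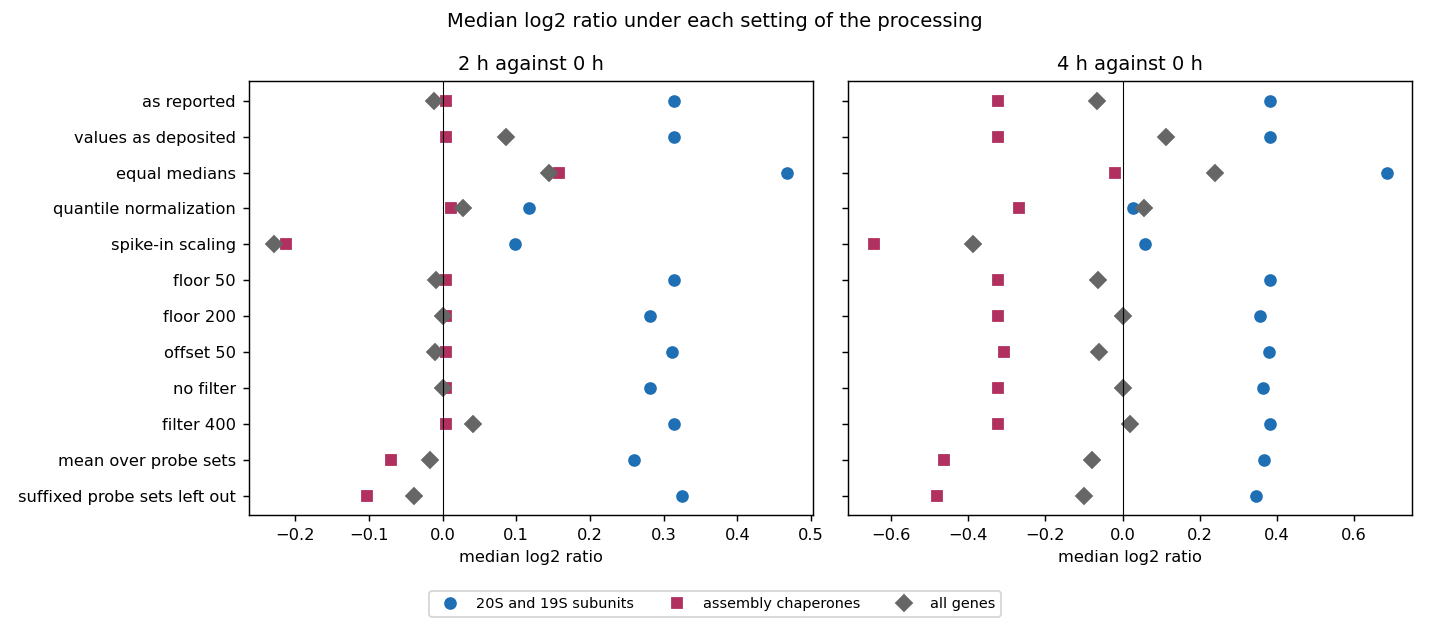
Median log2 ratio (x axes) of the 20S and 19S subunits, the assembly chaperones and all genes at 2 h and 4 h against 0 h under each setting of the processing (y axis). The subunits lie above the chaperones in every setting drawn, while their distance from 0 shrinks to 0.03 and 0.06 at 4 h with quantile normalization and spike-in scaling. Equal medians, spike-in scaling and the values as deposited shift all genes of an array alike and cannot change that order. A floor of 50 and a filter of 400 left both medians as reported, with the same gap of 0.70 at 4 h. These settings therefore add nothing to the order seen.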

How the data were processed

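The authors deposited 1 table of intensities, linear and scaled so that the 2% trimmed mean of each array is 150.0. The submitters' processing notes name GCOS 1.4; its signal algorithm is not stated there. Other fields (chip, fluidics) were read per the file headers. Here the trimmed mean was set to 500, values under 100 were raised to 100, and log2 was taken of the deposited intensities so scaled. Probe sets with 1 symbol passed at a mean log2 signal of at least that of 200, and the passing one with the highest mean stood for its gene. Entrez IDs gave RefSeq GRCm38.p6 symbols for 34754 of 34958 probe sets. Members and lists were chosen with earlier results of these data known. Signals are printed for the 2 highest and 2 lowest members of each role at 4 h and for active-site subunits, and for the same extremes of other lists; further genes were chosen after their values were seen. Spread after ± is the SD of log2 ratios between the passing probe sets of that gene. For the limits of 2 SDs it was taken within each of 4 bins of probe set signal, from the 3905 genes with 2 or more passing probe sets. The counting step was tested on simulated data. Software was Python 3.11.15 with pandas 2.3.3, numpy 2.4.6, matplotlib 3.10.9 and scipy 1.17.1. Alternatives were other scalings, floors of 50 and 200, an offset of 50, no filter, a filter of 400, probe sets averaged, and probe sets named _a_at, _s_at or _x_at left out.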

Additional observations from a re-analysis of the deposited data

How the results depend on the processing

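No paired analysis was possible because each time point has 1 array. The count of 0 members past 2-fold held except for 2 higher at 4 h with equal medians (Psmc1 and Psmb10, against 724 of all genes), 1 lower at 4 h with spike-in scaling (Psmd5), 1 lower at 4 h with suffixed probe sets left out (Psmb1, -1.01), and, without the filter, 1 higher at 4 h against 0 h and 1 against 2 h, which is Psmb11. A threshold of 0.5 on the log2 scale, added after the data were seen, gave 7 higher and 0 lower members at 2 h, 11 higher and 2 lower at 4 h, and 1 higher and 2 lower for 4 h against 2 h. All genes past it were 9.6% and 18.3% at 2 h, 15.5% and 28.8% at 4 h, and 7.56% and 19.6% for 4 h against 2 h. The tissue-induced beta subunits had a median of 0 at 2 h and 0.016 at 4 h with a floor of 200, and of 0 at 2 h without the filter, since undetected genes then enter. Relative to all genes the members' median at 4 h was 0.41 as reported and -0.03 with quantile normalization. Median log2 ratios of all genes moved by 0.30 at 4 h with equal medians and by -0.32 with spike-in scaling. Psmf1 was at -0.86 at 4 h as the mean over probe sets.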
